A study of Danio rerio with 12 samples.

Results

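The mitochondrial ribosome (mitoribosome) is built from RNA made in the mitochondrion and from proteins that are encoded in the nucleus, and 67 genes for such proteins were followed here in whole zebrafish (Danio rerio) larvae. They were chosen by name: every gene whose symbol begins with mrpl or mrps followed by a number, read from probe sets that carry 1 symbol, with the probe set of highest mean over the 12 arrays where a gene had several. The 67 genes were drawn from 73 such probe sets, and all 67 passed the filter on low values, out of 18407 named genes that passed it and 18985 named genes in all. By the proteins' place in the mammalian mitoribosome, 45 belonged to the large subunit and 22 to the small subunit. The genes mrps18a and mrps30 were counted with the large subunit, where their proteins sit in spite of the symbols.

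RNA was hybridised to Affymetrix arrays, and the 12 arrays fell into 6 groups of 2 biological replicates, each array holding the RNA of 30 to 40 pooled larvae of the wild-type AB line. The groups were larvae of 4 days post fertilisation (dpf) that had received 5-HT (serotonin), reserpine or the control injection, and larvae of 2 dpf that had received the same 3 injections. For 5-HT and reserpine the labels place the injection at the zygote stage. All groups shared the removal of the chorion with Proteinase K, and an injection of KCl solution marked with fluorescent TRITC-dextran. The controls' injection also held DMSO and ethanol, the solvents of reserpine. Reserpine blocks the transporter that loads serotonin and other monoamines into vesicles. The labels name no dose. The study's comparisons are those of each substance with the control at each age, and the 2 ages are compared here as well.

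Mitoribosomes translate only the few messages encoded by mitochondrial DNA, all of them for subunits of the respiratory chain and the ATP synthase. Their small subunit binds the message and decodes it, and their large subunit forms the peptide bond and releases the new chain at the inner membrane. Many of their proteins have a bacterial counterpart, others are found only in mitochondria, and in people inherited loss of single members impairs the respiratory chain.

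The deposited values were read as log2 levels, so that a difference of 1 is a doubling of the signal. Array medians lay between 6.44 and 6.56. Over the tested features, the correlation between 2 arrays was 0.975 to 0.988 within a group, 0.959 to 0.990 between groups of 1 age and 0.934 to 0.966 between the ages. The labels of reserpine 4 dpf replicate 2 disagree on its age, with 4 days in the title and 2 days in the description. Its 14 exocrine pancreas genes averaged 12.4, against 12.5 to 12.8 on the other 4 dpf arrays and 6.63 to 8.52 on the 2 dpf arrays. At 2 dpf these genes were lower in replicate 1 of every group (6.63 to 7.22) than in replicate 2 (8.06 to 8.52). Control 2 dpf replicate 1 stood apart in its 12 liver genes, which averaged 8.77 there and 10.01 to 10.38 on the other 2 dpf arrays. Results are given with both arrays, and the counts without them follow beside the results they change.

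Mitoribosomal protein genes were lower at 4 dpf than at 2 dpf. Averaged over the 3 injections, 34 of the 67 genes (50.7%) fell at an adjusted p under 0.05 in limma and 0 rose, while 13.5% of all 58127 tested features and 20.4% of the 18407 named genes fell. The median difference, 4 dpf minus 2 dpf, was -0.31 on the log2 scale, against -0.06 over all features. The quartiles were -0.37 and -0.22, and 66 of the 67 genes lay below zero. Because whole larvae were used, fewer cells that express these genes and less of their RNA per cell cannot be told apart.

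The shift was visible on single arrays. The mean level of the 67 genes was 8.81 and 8.94 on the 5-HT arrays, 8.81 and 8.82 on the reserpine arrays and 8.85 and 8.83 on the control arrays of 4 dpf. At 2 dpf it was 9.20 and 9.04 with 5-HT, 9.10 and 9.17 with reserpine and 9.12 and 9.17 in the controls. No 4 dpf array reached the lowest 2 dpf array. The 5-HT replicates lay farthest apart at both ages: 54 of the 67 genes were lower in replicate 1 than in replicate 2 at 4 dpf, and 51 were higher in replicate 1 at 2 dpf. On 5-HT 4 dpf replicate 2 only 37 of the genes lay below their own mean over the 12 arrays, against 56 to 62 on the other 4 dpf arrays.

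**Figure D1:**
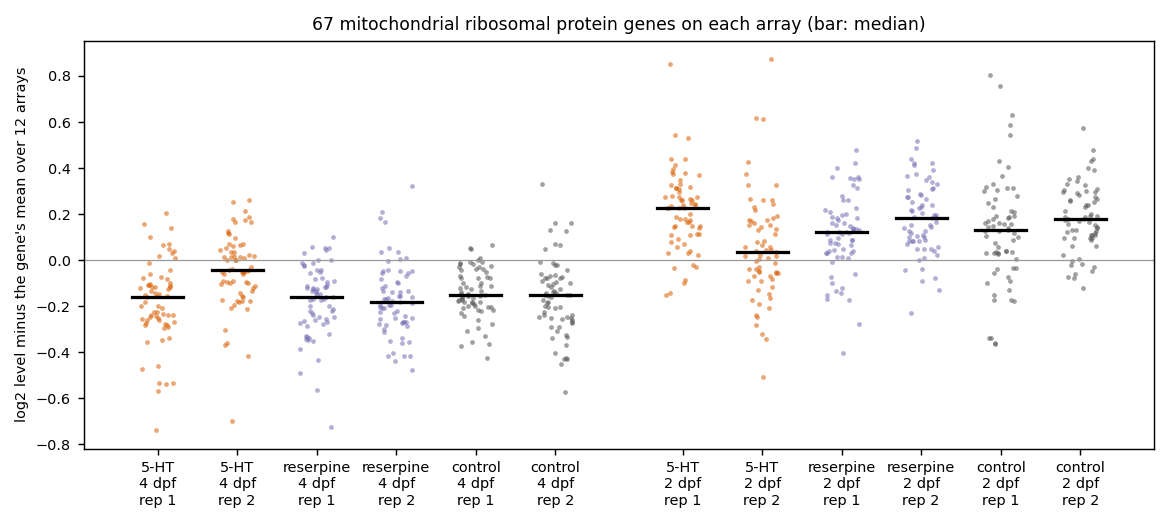
Each point is 1 of the 67 genes on 1 array; the vertical axis is its log2 level minus its own mean over the 12 arrays, and the bar is the median of the 67 genes. The medians lie between -0.18 and -0.04 on the 4 dpf arrays (left) and between 0.04 and 0.23 on the 2 dpf arrays (right), with the second 5-HT replicate of each age nearest to zero.

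Gene by gene, 15 of the 67 (22.4%) had all 6 arrays of 4 dpf below all 6 arrays of 2 dpf, and 0 had the reverse. The first arrangement was found in 7.06% of all features and in 2462 of the 18407 named genes. The mean was lower at 4 dpf in each of the 3 injections for 49 of the 67 (73.1%), which held for 29% of all features. Of the 34 called genes, 33 were lower in each injection, and mrpl53, whose 2 probe sets disagree, was the exception. It had -1.58 with 5-HT, -0.04 with reserpine and 0.145 in the controls, and its second probe set had -0.08 over the 3 injections (limma adjusted p = 0.648). The called gene mrpl57 had -0.39 on the probe set used and -0.16 and 0.033 on its other probe sets, neither past the threshold. The number called depended on single arrays: it was 16 without 5-HT 4 dpf replicate 1, 16 without control 4 dpf replicate 2, 17 without 5-HT 2 dpf replicate 1 and 24 to 37 without any other array. It was 15 when control 2 dpf replicate 1 and reserpine 4 dpf replicate 2 were both left out. Whether the calls over all features changed alike without these arrays is not shown here. The median of the members stayed between -0.34 and -0.28 without any 1 array. Without any 1 array 14 genes kept their call: mrpl1, mrpl12, mrpl13, mrpl17, mrpl23, mrpl46, mrpl53, mrpl57, mrps9, mrps18b, mrps21, mrps23, mrps24 and mrps34.

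Among the large subunit genes, mrpl12 changed most. Its protein forms the flexible stalk that draws translation factors to the ribosome, and in human cells it also binds the mitochondrial RNA polymerase. At 4 dpf mrpl12 had levels of 7.79 and 8.02 with 5-HT, 7.60 and 7.97 with reserpine and 7.97 and 7.90 in the controls. At 2 dpf it had 8.70 and 8.50 with 5-HT, 8.65 and 8.81 with reserpine and 9.08 and 8.90 in the controls. Every 4 dpf array was therefore below every 2 dpf array. The means were 7.88 ± 0.16 at 4 dpf and 8.77 ± 0.20 at 2 dpf (SD, n = 6 each), a log2 difference of -0.90 (SE 0.098, limma adjusted p = 0.00021), so that the linear signal fell by 46.3%.

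The stalk is anchored by the product of mrpl10, whose level ran over 8.95, 9.13 and 9.43 (lowest, median and highest array) at 4 dpf and over 9.36, 9.59 and 9.79 at 2 dpf. The ranges overlapped, and the gene fell by 0.42 (SE 0.115, adjusted p = 0.0262). Its call was lost, at adjusted p of 0.0620 to 0.0720, without control 2 dpf replicate 1, 5-HT 2 dpf replicate 1, reserpine 2 dpf replicate 1, control 4 dpf replicate 2, 5-HT 4 dpf replicate 2 or reserpine 4 dpf replicate 2. The gene mrpl1 encodes the protein of the other stalk, which is thought to guide the spent tRNA out, and its level ran over 6.57, 6.77 and 6.86 at 4 dpf and over 6.93, 7.33 and 7.53 at 2 dpf. Its groups did not overlap, and the difference was -0.51 (SE 0.115, adjusted p = 0.0118).

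In bacteria the counterparts of mrpl17 and mrpl23 lie at the exit of the tunnel through which the new chain leaves. The level of mrpl17 ran over 8.62, 8.98 and 9.15 at 4 dpf and over 9.18, 9.34 and 9.58 at 2 dpf, a difference of -0.44 (SE 0.101, adjusted p = 0.0126). The level of mrpl23 ran over 8.43, 8.48 and 8.65 at 4 dpf and over 8.67, 8.86 and 9.04 at 2 dpf, a difference of -0.35 (SE 0.085, adjusted p = 0.0161). Neither gene overlapped between the ages. The protein of mrpl3 lies close to the centre where the peptide bond is made, and its level ran over 8.03, 8.18 and 8.35 at 4 dpf and over 8.29, 8.50 and 8.59 at 2 dpf. It fell by 0.30 (SE 0.086, adjusted p = 0.0295) with overlapping ranges. Its call was lost, at adjusted p of 0.0584 to 0.0889, without replicate 1 of the control, 5-HT or reserpine group of 2 dpf, 5-HT 4 dpf replicate 1, control 4 dpf replicate 2 or reserpine 4 dpf replicate 2.

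The large subunit gene mrpl13, whose protein has a bacterial counterpart, had levels of 7.85, 8.03 and 8.26 (lowest, median, highest) at 4 dpf and of 8.45, 8.47 and 8.58 at 2 dpf. Its 2 dpf arrays had an SD of 0.054, and the difference was -0.45 (SE 0.080, adjusted p = 0.0033). Another with a bacterial counterpart, mrpl28, had levels of 8.36, 8.55 and 8.66 at 4 dpf and of 8.79, 8.88 and 8.98 at 2 dpf. It fell by 0.33 (SE 0.084, adjusted p = 0.0193), and its adjusted p was 0.0607 without 5-HT 4 dpf replicate 1 and 0.0626 without control 4 dpf replicate 2.

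Of the large subunit genes whose proteins were counted as mitochondria-specific, mrpl49 had levels of 9.05, 9.10 and 9.31 at 4 dpf and of 9.33, 9.50 and 9.62 at 2 dpf. It fell by 0.35 (SE 0.087, adjusted p = 0.0185), and the call was lost without 5-HT 2 dpf replicate 1 (0.0529), 5-HT 4 dpf replicate 1 (0.0589) or control 4 dpf replicate 2 (0.0609). The gene mrps18a, whose protein is related to a small subunit protein of bacteria but occupies a place in the large subunit, had levels of 9.77, 9.93 and 10.07 at 4 dpf and of 10.15, 10.22 and 10.49 at 2 dpf. It fell by 0.34 (SE 0.096, adjusted p = 0.0298), without overlap, but lost its call without any 1 of 7 arrays: replicate 1 of each 2 dpf group, control 2 dpf replicate 2, control 4 dpf replicate 2, 5-HT 4 dpf replicate 1 or reserpine 4 dpf replicate 2 (adjusted p 0.0505 to 0.0900). The gene mrps30, whose protein is also housed in the large subunit, had levels of 7.66, 7.93 and 8.20 at 4 dpf and of 7.74, 8.20 and 8.65 at 2 dpf. Its difference of -0.30 did not pass (SE 0.113, adjusted p = 0.0852).

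**Figure D2:**
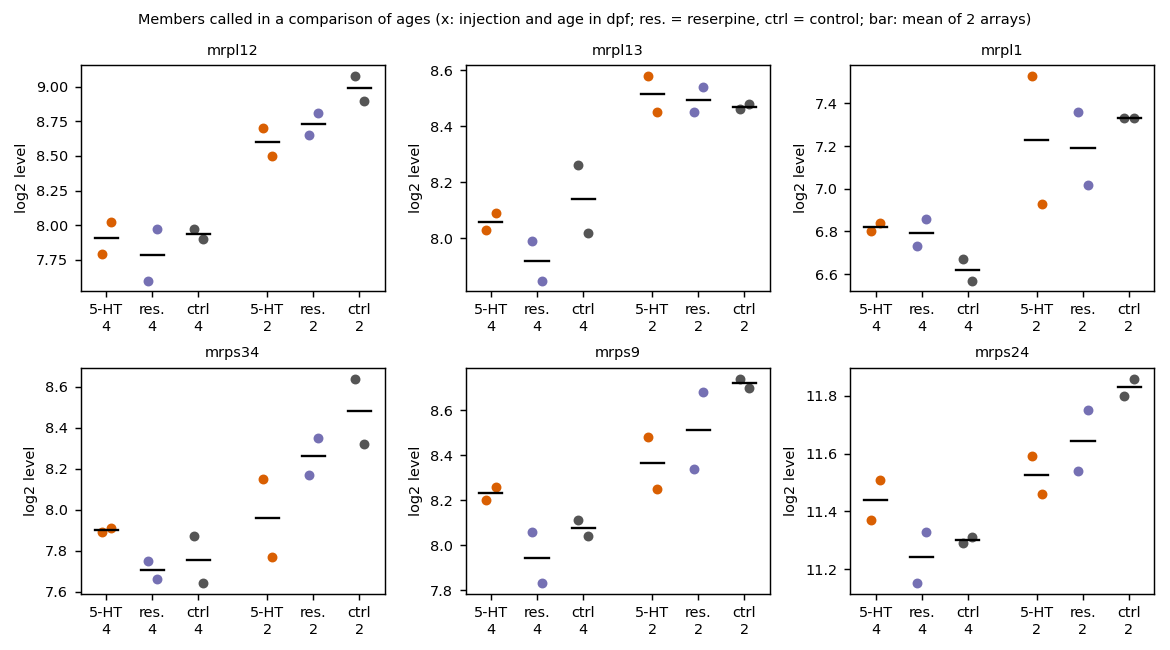
Log2 level (vertical axis) of 6 genes called in a comparison of ages, for each injection at 4 dpf (left in each panel) and 2 dpf (right); points are arrays and bars are means of 2 arrays. In mrpl12, mrpl13 and mrpl1 all 4 dpf arrays lie below all 2 dpf arrays. In mrps34, mrps9 and mrps24, which were called in the controls, the 5-HT arrays of the 2 ages lie closer together than the control arrays. The same holds for mrpl12 (-0.695 with 5-HT and -1.055 in the controls). Genes picked for a call in the controls tend to change more there, so this is no support for an effect of 5-HT. In mrpl17 and mrps12, called with 5-HT and not shown here, the control arrays of the ages lie closer together. The medians of all members were -0.245 with 5-HT and -0.295 in the controls. Only mrpl53 was called for an effect of 5-HT that differed between the ages.

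In the small subunit, mrps18b, a relative of mrps18a whose protein lies in the small subunit, had levels of 8.90, 9.06 and 9.18 (lowest, median, highest) at 4 dpf and of 9.29, 9.40 and 9.68 at 2 dpf, a difference of -0.38 (SE 0.084, adjusted p = 0.0107). The level of mrps21, whose bacterial counterpart takes part in the start of translation, ran over 6.71, 6.82 and 7.10 at 4 dpf and over 7.15, 7.29 and 7.41 at 2 dpf, a difference of -0.41 (SE 0.099, adjusted p = 0.0147). Both genes were free of overlap between the ages. With control 2 dpf replicate 1 and reserpine 4 dpf replicate 2 both left out, mrps18b missed the threshold (adjusted p = 0.0509), as did mrpl23 (0.0765).

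Loss of mrps22 or mrps34 impairs the small subunit in human patients. The level of mrps34 ran over 7.64, 7.81 and 7.91 at 4 dpf and over 7.77, 8.25 and 8.64 at 2 dpf, and it fell by 0.45 (SE 0.102, adjusted p = 0.0119) with overlap. The level of mrps22 ran over 8.21, 8.32 and 8.44 at 4 dpf and over 8.41, 8.70 and 8.81 at 2 dpf, and it fell by 0.33 (SE 0.088, adjusted p = 0.0225) with overlap. The call of mrps22 was lost without 5-HT 2 dpf replicate 1 (0.0582), control 4 dpf replicate 2 (0.0661) or 5-HT 4 dpf replicate 1 (0.0705). Its second probe set had a difference of -0.43 that did not pass (adjusted p = 0.126).

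The protein of mrps12 belongs to the decoding centre and that of mrps7 to the head of the small subunit, near the path of the message. The level of mrps12 ran over 8.02, 8.13 and 8.30 at 4 dpf and over 7.80, 8.19 and 8.82 at 2 dpf, with a difference of -0.15 that did not pass (SE 0.091, adjusted p = 0.275). The level of mrps7 ran over 8.74, 8.88 and 9.09 at 4 dpf and over 8.87, 9.09 and 9.32 at 2 dpf, with a difference of -0.17 that did not pass (SE 0.072, adjusted p = 0.115). The ages overlapped in both genes.

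A few members lay near zero. The only positive difference was that of mrpl58, which encodes a ribosome rescue factor that also serves as a built-in subunit: 0.055 (SE 0.109, adjusted p = 0.754), with levels of 7.69, 7.79 and 8.17 at 4 dpf and of 7.69, 7.78 and 7.97 at 2 dpf. Differences within 0.1 of zero were also measured for mrpl4 (-0.06), mrpl32 (-0.04), mrpl2 (-0.015) and mrps2 (-0.0067). None of these 5 passed, and the confidence interval of mrpl58 reached 0.299.

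**Figure D3:**
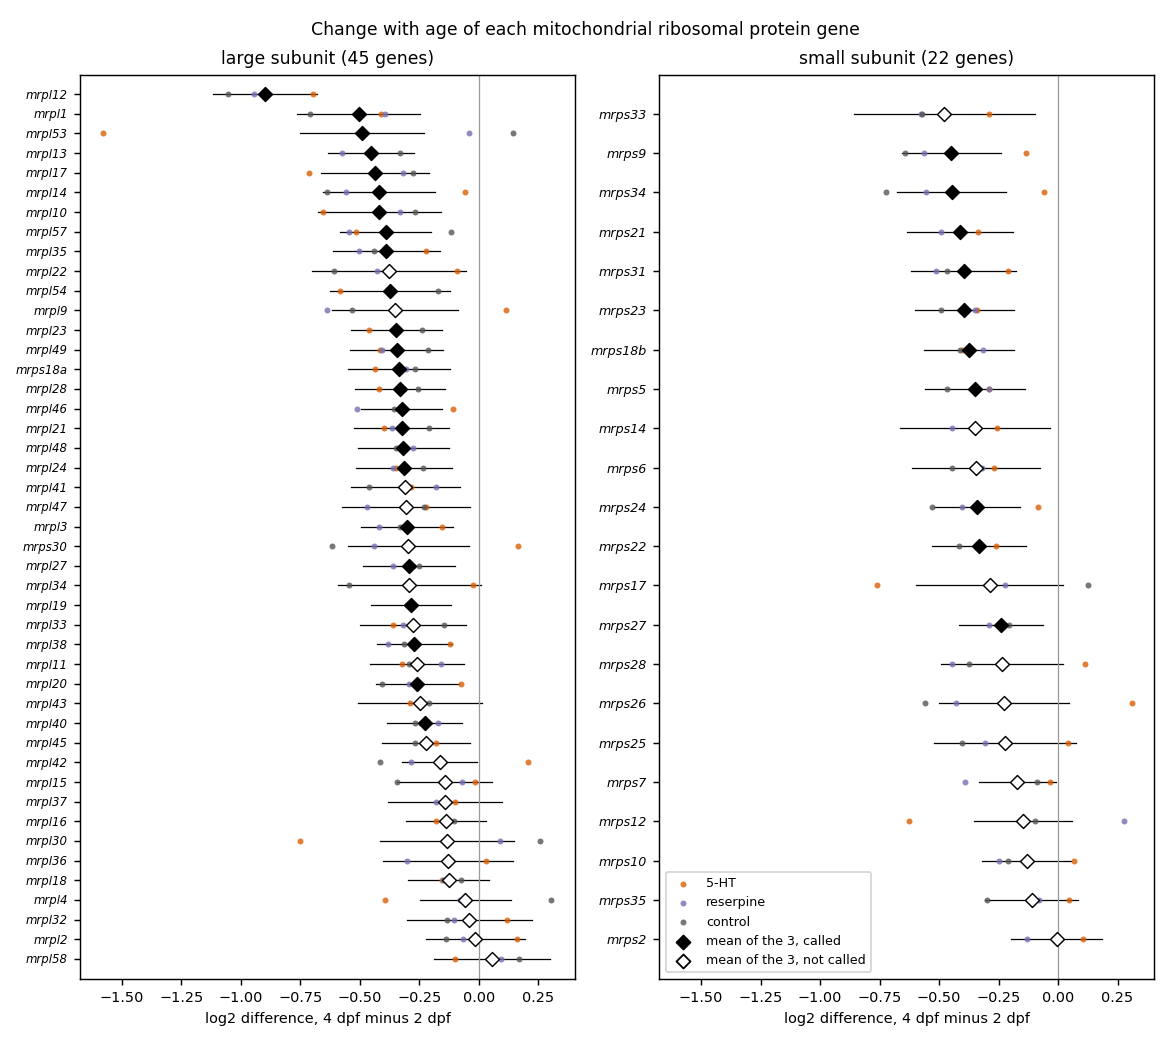
Log2 difference, 4 dpf minus 2 dpf (horizontal axis), of the 45 large subunit and 22 small subunit genes; diamonds are the mean of the 3 injections with the 95% confidence interval, filled where the adjusted p is under 0.05, and small points are the single injections. Filled diamonds lie on the left of zero in both panels, and the 5-HT point of mrpl53 at -1.58 lies far from the reserpine and control points of that gene, which its second probe set did not repeat.

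By subunit, 24 of the 45 large subunit genes fell (53.3%, median -0.30) and 10 of the 22 small subunit genes fell (45.5%, median -0.34). Of all features 13.5% fell, and of the named genes 20.4%. The arrays of the ages did not overlap for 12 large subunit genes and 3 small subunit genes. Lower without overlap were 7.06% of all features and 2462 of the 18407 named genes. By origin, 19 of the 41 genes with a direct bacterial counterpart fell (median -0.30), as did 15 of the 26 without one (median -0.31). The difference between these classes was not tested.

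Within single injections few members were called, and their shares lay near those of all features. With 5-HT 4 of 67 fell (5.97%, against 4.15% of all features), with reserpine 2 fell (2.99%, against 2.5%) and in the controls 4 fell (5.97%, against 5.82%). No member rose in any of the 3. Of the named genes 4.62% fell with 5-HT, 4.54% with reserpine and 7.19% in the controls. The member counts moved with the processing. Adjusted over 1 probe set per named gene they were 11 with 5-HT, 12 with reserpine and 12 in the controls. With the stricter low-value filter they were 7, 5 and 8 in that order, and with the replicate number as a block 6, 4 and 8. The shares of all features called under these alternatives are not given here, so these counts are not set against them. The medians of the members were -0.245 with 5-HT, -0.32 with reserpine and -0.295 in the controls. Over all features they were -0.055, -0.045 and -0.045 in that order. The 3 comparisons use separate arrays but share 1 estimate of the spread.

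In the 5-HT larvae the called genes were mrpl53, whose second probe set did not follow, mrpl17, mrpl12 and mrps12. Of these, mrpl17 had 8.62 and 9.05 at 4 dpf and 9.52 and 9.58 at 2 dpf (-0.715, SE 0.175, adjusted p = 0.0359). For mrpl12 the difference was -0.695 (SE 0.170, adjusted p = 0.0355). The gene mrps12 had 8.09 and 8.03 at 4 dpf and 8.55 and 8.82 at 2 dpf (-0.625, SE 0.158, adjusted p = 0.0398). The arrays did not overlap in these 3 genes. The count was 1 without any 1 of 5-HT 2 dpf replicate 1, 5-HT 2 dpf replicate 2, 5-HT 4 dpf replicate 1, control 4 dpf replicate 1 or control 4 dpf replicate 2, with mrpl53 the remaining gene, and it was 2 without 5-HT 4 dpf replicate 2. Without either control array of 2 dpf only mrps12 lost its call (0.0503). The mrpl57 difference of -0.515 did not pass (adjusted p = 0.0596).

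In the reserpine larvae mrpl12 fell by 0.945 (SE 0.170, adjusted p = 0.0113) and mrpl13 by 0.575 (SE 0.138, adjusted p = 0.0380), with 7.99 and 7.85 at 4 dpf and 8.45 and 8.54 at 2 dpf. Both were free of overlap. Without reserpine 4 dpf replicate 2, the array with the disputed age, mrpl12 kept its call and mrpl13 lost it (adjusted p = 0.131). Without reserpine 2 dpf replicate 2 or reserpine 4 dpf replicate 1 no member was called (adjusted p for mrpl12 0.0630 and 0.0867), and mrpl13 was also lost without any 1 of the other arrays except the control arrays of 2 dpf (0.0531 to 0.143). The differences of mrpl46 (-0.51, adjusted p = 0.0508), mrpl57 (-0.545, 0.0585) and mrps9 (-0.565, 0.0674) did not pass.

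In the control larvae mrpl12 fell by 1.055 (SE 0.170, adjusted p = 0.0058). The other 3 called genes were of the small subunit. The gene mrps34 had 7.87 and 7.64 at 4 dpf and 8.64 and 8.32 at 2 dpf (-0.725, SE 0.177, adjusted p = 0.0314). For mrps9, whose bacterial counterpart reaches toward the tRNA sites, the levels were 8.11 and 8.04 at 4 dpf and 8.74 and 8.70 at 2 dpf (-0.645, SE 0.160, adjusted p = 0.0332). For mrps24 they were 11.29 and 11.31 at 4 dpf and 11.80 and 11.86 at 2 dpf (-0.53, SE 0.140, adjusted p = 0.0409). The arrays were separated by age in all 4 genes. Without control 2 dpf replicate 1 no member was called (mrpl12 0.0528, mrps34 0.188, mrps9 0.149, mrps24 0.138), nor without control 4 dpf replicate 2 (mrpl12 0.0563). The count was 1 without 5-HT 4 dpf replicate 1, 5-HT 4 dpf replicate 2 or control 4 dpf replicate 1 and 2 without control 2 dpf replicate 2. Without either 5-HT array of 2 dpf mrps24 lost its call (0.0547). The mrpl1 difference of -0.71 did not pass (adjusted p = 0.0501).

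Other genes of mitochondrial translation were set beside the members in the comparison over the 3 injections. Of 5 mitoribosome subunits without an mrp symbol, 4 fell: chchd1 by 0.59 (adjusted p = 0.0054), aurkaip1 by 0.38 (0.0113), ptcd3 by 0.305 (0.0265) and dap3 by 0.295 (0.0310), while gadd45gip1 had -0.19 (0.312). Of 13 translation factors 5 fell, among them tufm by 0.32, which brings tRNA to the ribosome, slirp by 0.355, which stabilises mitochondrial messages, gfm1 by 0.33, which moves the message on, and tsfm by 0.63, which recycles the product of tufm. The median of the 13 was -0.195. Of 17 mitochondrial aminoacyl-tRNA synthetases, which charge the tRNAs, 1 fell (iars2 by 0.37) and 0 rose, with a median of -0.19. Of 24 assembly and rRNA factors 3 fell, mpv17l2 by 0.52, tfam by 0.27 and rbfa by 0.25, and mterf3 rose by 0.28. Of all named genes 20.4% fell. The shares that fell were above this for the 5 subunits (80%) and the translation factors (38.5%). They were below it for the synthetases (5.88%) and the assembly and rRNA factors (12.5%).

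The products of mitochondrial translation join respiratory chain complexes with nuclear-encoded subunits. Of 90 genes for respiratory chain and ATP synthase subunits 0 fell and 6 rose (6.67%) in the mean of the 3 injections, with a median of 0.076. Of 69 cytosolic ribosomal protein genes, whose products make up the ribosomes outside the mitochondrion, 0 fell and 5 rose (7.25%), with a median of 0.18. Both shares of rises lay below that of all named genes, of which 16.95% rose. Within single injections 0 of the 90 fell and 5 rose with 5-HT, and 0 fell and 3 rose with reserpine. In the controls 1 of the 90 fell (1.11%) and 4 rose (4.44%). Of the named genes 7.34% rose with 5-HT and 6.51% with reserpine, and in the controls 7.19% fell and 8.28% rose. Among 14 regulators of nuclear genes for mitochondrial proteins, ppargc1b rose by 0.65, tfeb by 0.47 and ppargc1a by 0.30, while gabpa, a subunit of a transcription factor that acts on such genes, fell by 0.39 and tfam by 0.27. Of the 14 regulators 21.4% rose and 14.3% fell, against 16.95% and 20.4% of all named genes. The difference between any of these lists and the members was not tested.

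**Figure D4:**
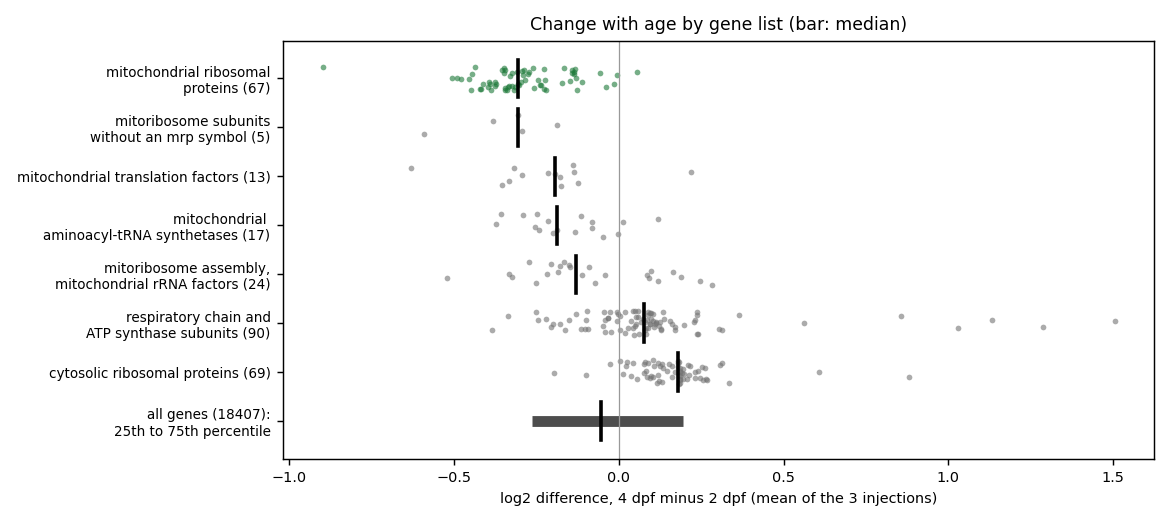
Log2 difference, 4 dpf minus 2 dpf, averaged over the 3 injections (horizontal axis) for the 67 members, 6 other gene lists and all 18407 named genes; points are genes, black bars are medians and the grey bar spans the 25th to 75th percentile of all genes. The medians are -0.31 for the members, 0.076 for respiratory chain and ATP synthase subunits and 0.18 for cytosolic ribosomal proteins.

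Markers of several cell states moved with age on the same arrays. Of 16 cell cycle genes 12 fell and 0 rose, and their mean level lay between 9.08 and 9.39 on the 4 dpf arrays and between 9.53 and 9.96 on the 2 dpf arrays. Of 9 red blood cell genes 5 fell, with means between 8.48 and 8.86 on the 4 dpf arrays and between 8.95 and 9.49 on the 2 dpf arrays. All 14 exocrine pancreas genes rose, and their mean lay between 12.4 and 12.8 on the 4 dpf arrays and between 6.63 and 8.52 on the 2 dpf arrays. Liver genes averaged 10.3 to 10.5 on the 4 dpf arrays and 8.77 to 10.4 on the 2 dpf arrays, with 2 of 12 higher. Skeletal muscle genes averaged 11.89 to 12.02 on the 4 dpf arrays and 11.82 to 12.08 on the 2 dpf arrays, with 2 of 19 lower and 2 higher. Of 13 neuron genes 4 fell and 3 rose, with means of 10.5 to 10.8 on the 4 dpf arrays and 10.6 to 10.9 on the 2 dpf arrays. Of all named genes 20.4% fell and 16.95% rose. The shares of liver and skeletal muscle genes that fell or rose did not exceed these. The part of the marker shifts in the fall of the members was not tested.

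Neither substance moved any member past the threshold at either age. In limma 0 of 67 passed for 5-HT against control at 2 dpf (0.00688% of all features did), for reserpine against control at 2 dpf (0%), for 5-HT against control at 4 dpf (0%) and for reserpine against control at 4 dpf (0%). The same held for 5-HT against reserpine at 2 dpf (0%) and at 4 dpf (0%). The median half-width of a member's 95% confidence interval in these comparisons was 0.359, without adjustment over the tested features. Larger differences also did not pass with 2 arrays a group. Among them were mrps26 for 5-HT against control at 2 dpf (-0.61, limma adjusted p = 0.223) and mrps12 for 5-HT against reserpine at 2 dpf (0.73, 0.772). The comparisons of 1 age share arrays and are not independent of each other.

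At an unadjusted p under 0.05, 10 members differed between 5-HT and control at 2 dpf, 5 higher and 5 lower, against 14.9% of all features. At 4 dpf 3 members did, against 8.5% of features. The counts for reserpine against control were 2 at 2 dpf (4.17% of features) and 0 at 4 dpf (1.73%). Those for 5-HT against reserpine were 2 at 2 dpf (6.04%) and 3 at 4 dpf (10.8%). All these member shares were close to or below those of all features. The medians of the 67 differences were -0.07 for 5-HT and -0.015 for reserpine at 2 dpf, and 0.07 for 5-HT and -0.035 for reserpine at 4 dpf, each against the control. All 67 genes lay within 0.5 of zero under reserpine at both ages, and 61 at 2 dpf and 65 at 4 dpf did under 5-HT.

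The gene with the smallest p in both comparisons of 5-HT with control was mrpl53, which encodes a large subunit protein found only in mitochondria. Its probe set had levels of 5.47 and 5.51 with 5-HT, 6.13 and 6.39 with reserpine and 5.93 and 6.34 in the controls at 4 dpf. At 2 dpf it had 7.06 and 7.08 with 5-HT, 6.52 and 6.08 with reserpine and 5.85 and 6.13 in the controls. The 5-HT arrays were thus the lowest of all arrays at 4 dpf and the highest of all at 2 dpf. The gene was named for its small p, so this order is no further support. Its signal was low: the probe set averaged 6.21 over the 12 arrays, below the array medians of 6.44 to 6.56. Against the control the difference was -0.645 at 4 dpf (SE 0.201, limma adjusted p = 0.404) and 1.08 at 2 dpf (SE 0.201, adjusted p = 0.0701), neither past the threshold. Without either reserpine array of 2 dpf, arrays that are not part of the comparison, the difference at 2 dpf passed (adjusted p = 0.0243).

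The change of mrpl53 with age in the 5-HT larvae was -1.58 (SE 0.201, adjusted p = 0.0020). It was -0.04 with reserpine (0.931) and 0.145 in the controls (0.703), neither past the threshold. The effect of 5-HT differed between the ages by -1.725 (SE 0.284, adjusted p = 0.0242), and mrpl53 was the 1 member of 67 called in that comparison, in which 2.16% of all features were called. These differences share the same 5-HT arrays. The call for the difference between the ages was lost, at adjusted p of 0.0507 to 0.116, without any 1 of the 8 control and 5-HT arrays, and at 0.077 when p-values were adjusted over 1 probe set per named gene.

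A second probe set for mrpl53 did not follow the first. It had levels of 5.77 and 5.82 with 5-HT, 5.94 and 5.97 with reserpine and 5.97 and 5.34 in the controls at 4 dpf. At 2 dpf it had 5.77 and 5.74 with 5-HT, 5.91 and 5.88 with reserpine and 5.97 and 6.00 in the controls. Its change with age under 5-HT was 0.04 (adjusted p = 0.926), and its effect of 5-HT differed between the ages by 0.37 (adjusted p = 0.536). With the mean of both probe sets the difference between the ages was -0.68 (adjusted p = 0.118).

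**Figure D5:**
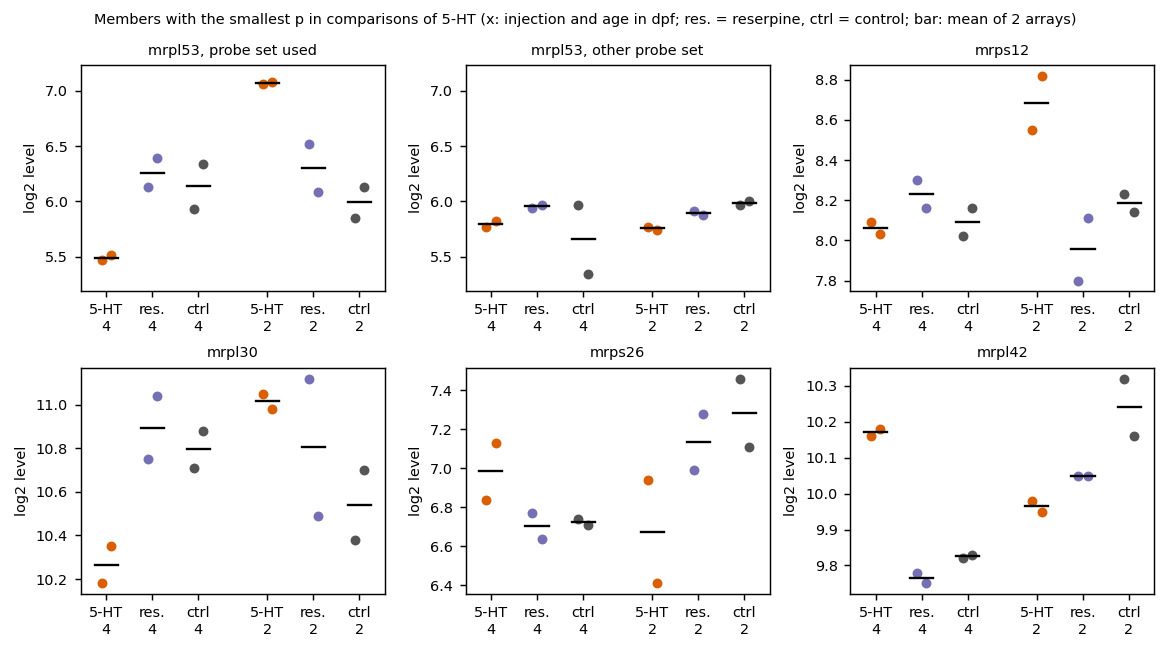
Log2 level (vertical axis) in each group at 4 dpf (left) and 2 dpf (right) for both probe sets of mrpl53 and for 4 other members. Points are arrays and bars are means of 2 arrays. The 4 members (mrps12, mrpl30, mrps26 and mrpl42) were taken from those with small p in comparisons of 5-HT. Others with a small p, such as mrpl4 and mrps34, are not drawn. The first mrpl53 probe set is lowest with 5-HT at 4 dpf (5.47 and 5.51) and highest with 5-HT at 2 dpf (7.06 and 7.08), while its second probe set stays between 5.34 and 6.00.

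At an unadjusted p under 0.05, 13 members differed in the effect of 5-HT between the ages, against 16.6% of all features. The genes with the next smallest p did not pass: mrpl42 with 0.62 (adjusted p = 0.104), mrpl4 with -0.70 (0.125), mrpl30 with -1.005 (0.135) and mrps26 with 0.87 (0.176). Levels of mrpl30, with a bacterial counterpart, were 10.18 and 10.35 with 5-HT and 10.71 and 10.88 in the controls at 4 dpf, and 11.05 and 10.98 with 5-HT and 10.38 and 10.70 in the controls at 2 dpf. The mitochondria-specific mrpl42 was placed the other way round, with 10.16 and 10.18 with 5-HT and 9.82 and 9.83 in the controls at 4 dpf, and 9.98 and 9.95 with 5-HT and 10.32 and 10.16 in the controls at 2 dpf. In both genes the 5-HT and control arrays were separate at each age, on opposite sides. Both were named for their small p in this same comparison, so the separation is no further support. The reserpine arrays of mrpl30 had 10.75 and 11.04 at 4 dpf and 11.12 and 10.49 at 2 dpf. Those of mrpl42 had 9.78 and 9.75 at 4 dpf and 10.05 and 10.05 at 2 dpf.

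At 2 dpf the differences of mrps12 (0.50, adjusted p = 0.190), mrps34 (-0.52, 0.217), mrps26 (-0.61, 0.223) and mrps30 (-0.555, 0.230) between 5-HT and control did not pass. For mrps12 the levels were 8.55 and 8.82 with 5-HT, 7.80 and 8.11 with reserpine and 8.23 and 8.14 in the controls, the 5-HT arrays being highest. At 4 dpf the differences of mrpl42 (0.345, 0.468) and mrpl30 (-0.53, 0.549) did not pass either. The 5-HT arrays were above the control arrays in mrpl42 and below them in mrpl30.

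For reserpine, the members with the smallest p at 2 dpf were mrps7, with 9.21 and 9.32 against 8.89 and 8.87 in the controls (0.385, adjusted p = 0.998), and mrpl4, whose protein lines the exit tunnel in bacteria, with 10.55 and 10.44 against 9.99 and 10.28 (0.36, adjusted p = 0.998). At 4 dpf they were mrpl46 (-0.23) and mrpl13 (-0.22), both with an adjusted p of 1. The effect of reserpine differed between the ages for 0 of 67 members in limma (0% of all features), and 0 members had an unadjusted p under 0.05 (2.46% of features). Between 5-HT and reserpine the smallest p belonged to mrps12 at 2 dpf (0.73, adjusted p = 0.772) and the first probe set of mrpl53 at 4 dpf (-0.77, adjusted p = 0.266), neither past the threshold.

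Of the 67 genes, 5 had more than 1 probe set: mrpl20, mrpl47, mrpl53, mrpl57 and mrps22. The lower probe sets of mrpl20 (-0.05), mrpl47 (-0.14) and mrpl57 (-0.16 and 0.033) had smaller differences between the ages than those used (-0.26, -0.31 and -0.39). So did that of mrpl53 (-0.08, against -0.49). That of mrps22 had a larger difference than the one used (-0.43, against -0.33), but did not pass. With the mean of all probe sets of a gene 32 members fell in place of 34. In the RefSeq annotation several members neighbour other mitochondrial genes, among them mrpl47 beside ndufb5 and mrpl36 beside ndufs6, which encode subunits of respiratory complex I, mrpl20 between atad3 and sdhb, and mrpl43 beside twnk, the mitochondrial DNA helicase. These are picked examples, and many members have other neighbours, such as mrpl17 beside prss59.2. Whether members neighbour such genes more often than other genes do was not tested.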

How the data were processed

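RNA of whole larvae was hybridised to Affymetrix Zebrafish Gene arrays after Trizol and column extraction, per the labels' protocols. The deposited table gives log2 levels for 73244 features on 12 arrays, with 2 decimals. That they are log2 values was read from their range, 1.91 to 14.35, and what the authors used to normalize them is not given in the sources used here. No further scaling was applied. Features were named from the platform annotation and from RefSeq's gene table for the assembly GRCz12tu, in which all 67 members were found. Probe sets with several symbols (842) or none (51911) named no gene, so mrpl39, mrpl44, mrpl51, mrps11 and mrps18c, found only on probe sets with several symbols, are not analysed here.

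A feature was tested if at least 2 arrays reached their 25th percentile, which left 58127. limma 3.58.1 in R 4.3.3 (two-sided, default settings) was fitted to the 6 group means of all 12 arrays, with 6 residual and 3.53 prior degrees of freedom, and p-values were adjusted over all tested features by the Benjamini-Hochberg method, with calls at 0.05. Of its 12 comparisons, only that of the ages averaged over the 3 injections was tested on simulated data. A value without an adjusted p beside it is a level or a difference on the log2 scale. Confidence intervals are at 95%. The number of arrays limits the precision.

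Per comparison, tested values are given for up to 10 called members in each direction whose arrays do not overlap, for the 5 smallest p where fewer than 5 were called, and for genes picked by textbook role. From other lists at most 4 members with the smallest p were named, and the others that are named there were added after their values were seen. The members and lists were chosen with earlier results of these data known. The labels call the replicates biological, and p-values measure the spread between such pools. Same-numbered arrays of 1 age deviated together in all 6 pairs of groups (correlation of deviations 0.179 to 0.329). The numbers may therefore pair arrays within an age. Across the ages the correlation was -0.066 to 0.221, over 0.1 in 6 of 9 pairs, and the numbers were not taken as pairs there. The main tests used no pairing, so that their p-values leave it out. The block was an alternative to them, run over all arrays and within each age. Alternatives covered the low-value filter, quantile normalization, centring of the arrays, the replicate block, limma's trend and robust options, fewer arrays, the mean of probe sets and adjustment over named genes.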

Additional observations from a re-analysis of the deposited data

Results flagged for a closer look

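The gene mrpl53 was singled out because the effect of 5-HT against control differed between the ages. The difference of the effects, 4 dpf minus 2 dpf, was -1.725 on the log2 scale (SE 0.284, limma adjusted p = 0.0242), with effects of -0.645 at 4 dpf and 1.08 at 2 dpf. Both 5-HT arrays lay below both controls at 4 dpf and above both at 2 dpf. The gene was picked by this same difference, so the separation is no further support. In this comparison 1 of the 67 members was called (1.49%), against 2.16% of all features. The second probe set of the gene gave 0.37 (adjusted p = 0.536) for the same difference. The call was lost without any 1 of the 8 arrays compared (adjusted p 0.0507 to 0.116). No group held enough arrays for a test of single outlying arrays.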

How the results depend on the processing

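The 67 members' fall with age kept its direction under all alternatives, with 32 to 44 members called when all 12 arrays were used; the counts within single injections were far less stable. With the stricter low-value filter 7 members were called with 5-HT, 5 with reserpine, 8 in the controls and 0 for the 5-HT effect between the ages, since the mrpl53 probe set was then not tested. With reserpine 4 were called under quantile normalization, median centring, the intensity trend and robust prior, and the replicate block alike. In the controls 7 were called with the trend and robust prior. With the replicate block 8 were called in the controls as well, and besides the reserpine and control counts it moved none by over 1.5 times (39 over the 3 injections, 6 with 5-HT). With a separate block within each age, chosen after seeing the data, 38 were called over the 3 injections, 5 with 5-HT, 3 with reserpine and 6 in the controls, and neither block changed a count between injections at 1 age. With only the arrays compared, which leaves 2 residual degrees of freedom for 2 groups, 2 were called with 5-HT, 0 with reserpine and 1 in the controls. Adjusted over 1 probe set per named gene, 11 were called with 5-HT, 12 with reserpine, 12 in the controls and 0 for the 5-HT effect between the ages, as with the mean of all probe sets (0). Leaving out control 2 dpf replicate 1 and reserpine 4 dpf replicate 2 together, chosen after seeing the data, gave 15 over the 3 injections, 1 with reserpine, 1 in the controls and 0 for the 5-HT effect between the ages. Leaving out 1 array at a time gave 16 to 37 over the 3 injections, 1 to 5 with 5-HT, 0 to 2 with reserpine, 0 to 5 in the controls, 0 to 1 for 5-HT against control at 2 dpf, 0 to 1 for the 5-HT effect between the ages and 0 to 0 in the other comparisons. An array left alone in its group was assumed to vary like the other groups. The share of all features called under each alternative is not given here, so the member counts are not set against it. Except where the construction shows it, the cause was not tested.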
